A study of Mus musculus with 2 samples.

Results

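The mitochondrial ribosomal protein genes are the nuclear genes whose symbols begin with Mrpl or Mrps followed by a digit. All protein-coding genes of that form in GENCODE release M21 were taken, which gave 78 of the 55536 genes listed. The filter used names alone and no measured value, though the set was chosen with earlier results of these data known. Of the 78, 51 encode proteins of the large subunit and 26 proteins of the small subunit. The remaining gene, Mrps36, carries a small-subunit name, but its protein is known as a component of the 2-oxoglutarate dehydrogenase complex.

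Polyadenylated RNA was measured in the forebrain of B6NCrl mice on the day of birth (age 0 days), in pup 1 (replicate 1) and pup 3 (replicate 2). Each library was made from 10 ng of RNA of a single forebrain, with oligo-dT priming, tagmentation and added ERCC spike-in RNAs. The labels name no treatment, genetic change or second group, do not give the sex, and assign both pups the same donor identifier. With 1 group of 2 pups no test between groups was possible, and differences between the pups are given by size.

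Mitochondria keep a small genome whose messenger RNAs all encode core subunits of the respiratory chain and ATP synthase. Those messages are translated inside the organelle by a dedicated ribosome, whose RNAs come from mitochondrial DNA and whose proteins are all encoded in the nucleus, made in the cytosol and imported. Many of its proteins have counterparts in bacterial ribosomes, and others are found in mitochondria alone. Neurons depend strongly on oxidative phosphorylation, and inherited defects of this ribosome in humans affect brain, heart and liver.

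Expected counts, which are estimated numbers of reads per gene, summed to 40964891 in pup 1 and 41230878 in pup 3. All 7 forebrain marker genes were detected in both pups, with Tbr1, a transcription factor of cortical neurons, at 22.1 and 22.9 TPM. None of the 6 midbrain and hindbrain markers was detected, and the highest of them, En1, had 0.150 and 0.0400 TPM. TPM is a level corrected for transcript length and library size, and a gene was called detected at 1 TPM or more in both pups. In a piece of tissue, more cells of a type and more RNA per cell cannot be told apart. The strand setting of the libraries was not given, so reads of overlapping genes on opposite strands may be mixed.

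Promoter sequences of 4 members are shown for their motifs. Motifs of 3 transcription factors known for mitochondrial genes were more frequent around the starts of members than around those of all coding genes. The RefSeq table gave windows of 300 bases, 250 before and 50 after the start, for 69 members and for 17492 coding genes in all. The 250 bases before the start are printed 5′ to 3′ on the strand of the gene, in build GRCm38.p6, with matches to the motifs of NRF1 and of ETS factors in capitals. Mrpl12, whose protein forms the flexible stalk, lies at chr11:120484387-120484636 on the plus strand. Mrpl17, a protein of the tunnel exit, lies at chr7:105811088-105811337 on the minus strand. Mrpl52, in the central protuberance, lies at chr14:54426659-54426908 on the plus strand. Mrps18a, which despite its name belongs to the large subunit, lies at chr17:46110754-46111003 on the plus strand.
Mrpl12: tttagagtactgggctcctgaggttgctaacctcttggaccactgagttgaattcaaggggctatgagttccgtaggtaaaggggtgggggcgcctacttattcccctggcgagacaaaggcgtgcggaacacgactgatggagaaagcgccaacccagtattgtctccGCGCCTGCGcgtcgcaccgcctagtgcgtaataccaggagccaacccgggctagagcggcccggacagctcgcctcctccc
Mrpl17: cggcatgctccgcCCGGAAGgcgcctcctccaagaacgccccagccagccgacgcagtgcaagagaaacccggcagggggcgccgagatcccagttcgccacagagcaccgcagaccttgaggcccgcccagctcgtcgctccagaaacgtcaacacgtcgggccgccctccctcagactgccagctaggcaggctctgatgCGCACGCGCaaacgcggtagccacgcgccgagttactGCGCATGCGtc
Mrpl52: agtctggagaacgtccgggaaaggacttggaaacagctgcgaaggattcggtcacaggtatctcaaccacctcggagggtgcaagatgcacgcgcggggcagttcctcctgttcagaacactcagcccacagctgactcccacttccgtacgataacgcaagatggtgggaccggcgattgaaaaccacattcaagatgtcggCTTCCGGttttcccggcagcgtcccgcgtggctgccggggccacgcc
Mrps18a: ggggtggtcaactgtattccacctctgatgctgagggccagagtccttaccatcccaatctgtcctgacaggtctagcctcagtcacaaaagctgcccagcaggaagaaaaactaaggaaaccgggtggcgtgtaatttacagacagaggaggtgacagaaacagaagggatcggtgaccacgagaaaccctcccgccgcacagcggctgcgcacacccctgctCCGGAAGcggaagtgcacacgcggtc

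In the Mrpl12 window the NRF1 match covered bases 81 to 73 before the start. The Mrpl17 window held NRF1 matches at bases 48 to 40 (reverse strand) and 11 to 3 before the start and an ETS match at bases 237 to 231. The ETS matches lay at bases 47 to 41 before the start of Mrpl52 (reverse strand) and at bases 26 to 20 before that of Mrps18a.

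The NRF1 motif (GCGCNTGCG or CGCANGCGC) occurred in the 300-base window of 18 of 69 members, 26.1%, and of 9.68% of all coding genes. NRF1 is a regulator of nuclear genes for mitochondrial proteins. The ETS motif (CCGGAAG or CTTCCGG), the core bound by ETS factors such as GABPA, occurred in 26 members, 37.7%, and in 12.9% of coding genes. The YY1 motif (AAGATGGCG or CGCCATCTT) occurred in 8 members, 11.6%, and in 2.14% of coding genes. At least 1 of these 3 motifs was found in 43 members, 62.3%, and in 21.9% of coding genes. All members but only part of the coding genes were detected in these pups. Shares of these and the following motifs among detected coding genes alone were not computed. A higher share is thus not shown to be particular to members.

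Of the other promoter elements, the CCAAT box, GC box and E-box were near their share in all coding genes, and the TATA box was less frequent. A CCAAT box (CCAAT or ATTGG) was found in 39.1% of members and 42.3% of coding genes, and a GC box (GGGCGG or CCGCCC) in 49.3% and 49.2%. The E-box CACGTG was found in 7.25% of members and 8.91% of coding genes. A TATA box (TATAAA or TTTATA) was found in 5 members, 7.25%, and in 14.8% of coding genes. No motif contains another, though matches may overlap, and all were searched on both strands. A match is a string of letters and no measurement of binding. The median level was 101 TPM in members with an ETS match and 61.9 TPM in members without, 81.0 and 84.0 TPM with and without an NRF1 match, and 63.3 and 84.1 TPM with and without a YY1 match.

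All 78 members were detected in both pups, where 59.5% of the 22028 protein-coding genes listed were. The median over members was 82.8 TPM for pup 1 and 82.7 TPM for pup 3, and the median of the members' mean levels was 84.0 TPM, with an SD of 0.0636 between the medians of the pups (n = 2). This compares with a median of 26.0 TPM over the 10329 protein-coding genes with a mean of 5 TPM or more, a value that 76 of the 78 members exceeded. The median member ranked at percentile 91.0 of all protein-coding genes and the lowest member at percentile 61.0.

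**Figure D1:**
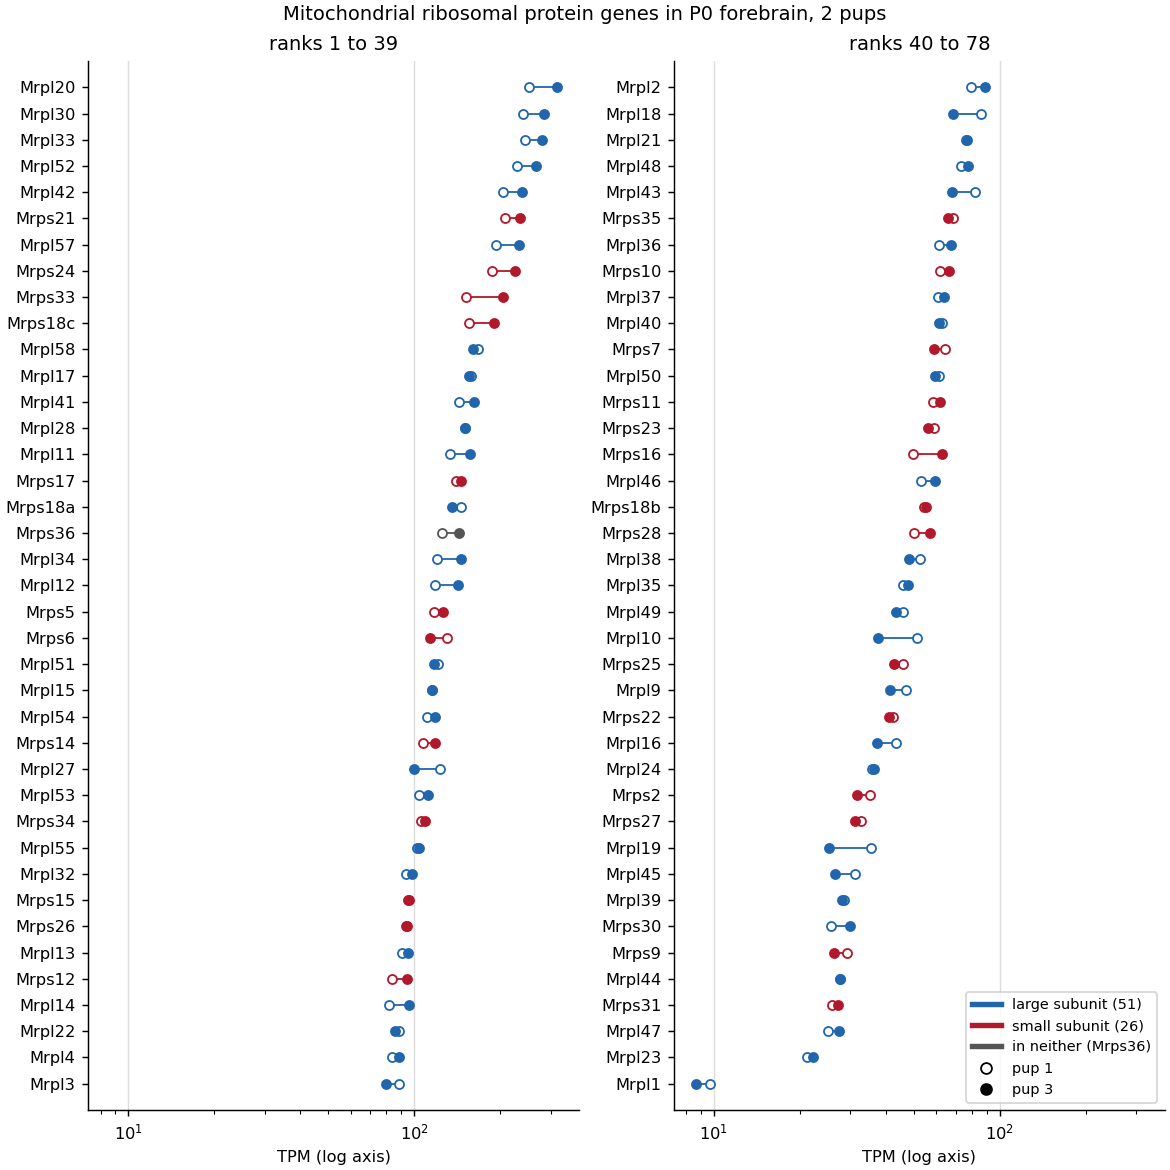
TPM of each of the 78 members (log axis) in pup 1 (open circles) and pup 3 (filled circles), ordered by mean level and coloured by subunit. Levels run from 283 TPM for Mrpl20 to 9.20 TPM for Mrpl1, and the circles of a gene lie close together against that range.

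Together the members held 0.378% of all counts in pup 1, with a 95% Wilson interval of 0.377 to 0.380, and 0.436% in pup 3, with an interval of 0.434 to 0.438. These intervals cover the counting error of reads alone. Since the reads carry no molecular identifiers, copies of a molecule cannot be told from separate molecules, and the intervals may be too narrow. Counts per member ranged from 428 to 3949 in pup 1 and from 446 to 5679 in pup 3. Across the 78 genes, which are not independent replicates, the levels in the pups had a Pearson r of 0.988 on the log2 scale and a Spearman rho of 0.986.

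The mean levels spanned 30.8-fold from the lowest to the highest member, but the middle part of the set was narrow. The quartiles were 47.7 and 128 TPM, a ratio of 2.69. On the scale of log2 (TPM + 1) the SD among members was 0.99, against 1.67 among protein-coding genes of 5 TPM or more. On the scale of log2 counts, which are not divided by length, it was 0.62 against 1.58. The members' raw counts lay closer together than their length-corrected levels did.

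The 10 highest members came from both subunits. Mrpl20 (chr4:155802878-155809975, plus strand), a protein of bacterial type that binds the large ribosomal RNA, had 252 TPM in pup 1 and 315 in pup 3 (283 ± 44.6, SD, n = 2). Mrpl30 followed with 240 and 285 TPM, and Mrpl33 with 244 and 281 TPM. All 3 are bacterial-type proteins of the large subunit, and each had more TPM in pup 3. Mrpl52 (228 and 267 TPM) and Mrpl42 (205 and 239 TPM), both found in mitochondrial ribosomes alone, came next. Mrps21, with 207 and 235 TPM, was the highest small-subunit member and had the shortest leading transcript, 405 bases. The leading transcript is the annotated transcript with the highest mean TPM of its gene.

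Mrpl57 reached 194 and 232 TPM and Mrps24, a protein of the small-subunit head, 187 and 226 TPM. Mrps33, also of the head, had 152 and 205 TPM, and Mrps18c 155 and 190 TPM. Among these 10 highest members, every gene was higher in pup 3 than in pup 1. Neighbours in this order, such as Mrpl30 and Mrpl33 with means of 263 TPM each, differed by less than the spread between the pups.

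The lowest member was Mrpl1 (chr5:96209493-96266727, plus strand), which encodes a protein of the mobile L1 stalk where spent tRNA leaves. It had 9.72 TPM in pup 1 and 8.68 in pup 3 (9.20 ± 0.735, SD, n = 2) and the longest leading transcript of the set, 3431 bases. Mrpl23 was next with 21.1 and 22.2 TPM. Mrpl47 had 26.2 ± 1.59 TPM (SD, n = 2), Mrps31 25.8 and 27.2 TPM, and Mrpl44 27.6 and 27.7 TPM. Mrps9 (29.2 and 26.3 TPM), Mrps30 (25.7 and 29.9 TPM), Mrpl39 (28.5 and 28.1 TPM), Mrpl45 (31.1 and 26.5 TPM) and Mrpl19 (35.3 and 25.2 TPM) completed the 10 lowest. From Mrpl47 to Mrpl19 these means lay between 26.2 and 30.2 TPM, and their order is not resolved by 2 pups. Mrpl1 was detected on 685 and 686 counts, and the fewest counts of any member were the 428 and 446 of Mrpl23.

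The value for Mrpl23, at chr7:142532686-142540747 in mm10, depends on a processed pseudogene. Mrpl23 encodes a ring protein of the tunnel exit, through which the new polypeptide leaves. Its pseudogene Mrpl23-ps1, at chr2:74591330-74591909, had 140 TPM in pup 1 and 172 in pup 3 (156 ± 22.2, SD, n = 2), far above the gene itself. The transcript of the pseudogene, 580 bases long, and the Mrpl23 transcript, 692 bases long, were identical without a gap or mismatch over 540 bases, from base 151 to base 690 of Mrpl23. This stretch holds the whole coding part, bases 167 to 604. The first 120 coding bases, which stand in the same letters in the gene (bases 167 to 286) and the pseudogene (bases 18 to 137), are shown because reads from them carry no difference by which to assign them.
Mrpl23: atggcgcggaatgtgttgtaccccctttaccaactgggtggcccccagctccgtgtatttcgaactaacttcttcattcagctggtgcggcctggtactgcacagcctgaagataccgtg

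**Figure D2:**
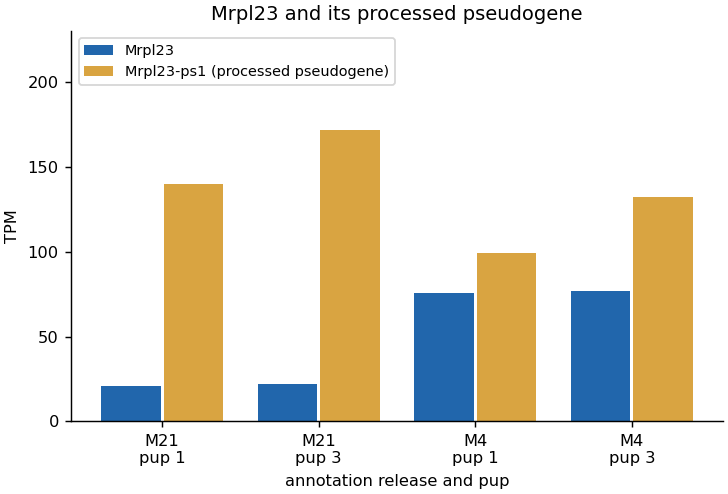
TPM of Mrpl23 and of its processed pseudogene in both pups, as listed with annotation release M21 and with release M4. The pseudogene stands above the gene in all 4 pairs of bars, by a wide margin with M21 and a smaller margin with M4.

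Of 100-base windows of the Mrpl23 transcript, 74.4% occurred in the pseudogene, and of those of the pseudogene 91.7% occurred in Mrpl23. The pseudogene took 80.4% of the joint expected counts of the pair in pup 1 (of 2187) and 84.5% in pup 3 (of 2873). With annotation release M4 the same libraries gave Mrpl23 75.9 and 76.8 TPM and the pseudogene 99.5 and 132 TPM. The sum of gene and pseudogene with M21, 161 and 194 TPM, would put Mrpl23 at rank 10 instead of 77. With M4 the sum was 175 and 209 TPM. The division of the deposited counts between these loci is therefore uncertain, and their sum differed less between the releases than either part. The other 4 pseudogenes listed under a member's name, Mrpl48-ps and 3 copies of Mrps36, had at most 2.26 TPM in either pup. Processed pseudogenes under other symbols are not in that count. Among them, Gm5776 had a mean of 32.8 TPM and shared 2.00% of the 100-base windows of the leading transcript of Mrps33.

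Shared sequence touched most other members less. No 100-base window of the leading transcript recurred in another gene's transcripts for 49 of the 78 members, and over 50% of windows recurred for 3. Besides Mrpl23 these were Mrpl53, every window of which also stands in the overlapping gene Gm42688 (2.40 and 1.92 TPM), and Mrps18b, with 56.9%. Over 10% of windows recurred for 14 members. Of these, Mrps34 shared 49.5% with Mapk8ip3 (mean 46.9 TPM). Mrpl48 shared 28.6%, mostly with Rab6a (mean 229 TPM). Apart from Mrpl23, the main partner of each of the rest had a mean of at most 10.8 TPM. In the genome 26 members overlapped another gene of 1 TPM or more, 6 of them on the same strand. Among protein-coding genes of 5 TPM or more 26.7% overlapped such a gene, and 5.14% on the same strand.

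The subunits differed little in level. Large-subunit members had a median of 83.6 TPM in pup 1 and 85.4 in pup 3, and small-subunit members 66.6 and 66.0. On the log2 (TPM + 1) scale the large-subunit median was higher by 0.32 in pup 1 and 0.37 in pup 3. The difference was 0.10 with annotation release M4 and 0.10 on counts scaled to library size (CPM), which are not divided by length. The ranges overlapped widely, from 9.20 to 283 TPM in the large and from 26.5 to 221 TPM in the small subunit.

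The 46 members with bacterial counterparts had a median of 87.8 TPM and the 31 found in mitochondrial ribosomes alone 62.3 TPM. This difference was 0.47 in pup 1 and 0.51 in pup 3 on the log2 (TPM + 1) scale, but 0.05 on CPM. The bacterial-type members had shorter leading transcripts, with a median of 801 bases against 1134 bases.

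Members around the peptidyl transferase center, where peptide bonds form, stood near the median of the set. Mrpl27, whose bacterial counterpart reaches into that center, had 123 and 100 TPM. Mrpl4 had 83.6 and 88.2 TPM, Mrpl3 88.2 and 80.0 TPM, Mrpl2 79.5 and 88.5 TPM, and Mrpl16 43.4 and 37.3 TPM. Their median was 84.1 TPM.

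Members at the tunnel exit had a median of 28.6 TPM over 8 genes, and 5 of the 10 lowest members belong to that list. Mrpl17, at 158 and 156 TPM, and Mrpl22, at 88.5 and 85.4 TPM, were above the median of all members. Mrpl24 had 35.8 and 36.4 TPM. Mrpl45, at 31.1 and 26.5 TPM, docks the ribosome to the inner membrane near the insertase, and Mrpl39 and Mrpl44 sat at 28.3 and 27.6 TPM. The list includes Mrpl23, whose value is uncertain as described.

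The 3 stalk members, which recruit translation factors, differed between themselves and between the pups. Mrpl11 had 133 and 157 TPM and Mrpl12 118 and 142 TPM. Mrpl10, the base that holds several copies of the Mrpl12 protein, had 51.3 and 37.4 TPM and was lower in pup 3 while its partners were higher. With release M4, Mrpl11 was listed at 42.7 and 48.3 TPM.

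The central protuberance, the crown of the large subunit, had a median of 75.3 TPM over 7 members. It ran from Mrpl52 (mean 248 TPM) over Mrpl55 (102 and 104 TPM), Mrpl18 (86.1 and 68.8 TPM), Mrpl48 (73.0 and 77.7 TPM) and Mrpl40 (62.6 and 61.2 TPM) to Mrpl46 (52.8 and 59.5 TPM) and Mrpl38 (52.5 and 48.3 TPM). The small-subunit head, where the messenger RNA is bound, had a median of 65.7 TPM over 8 members, from Mrps31 (26.5 TPM) to Mrps24 (206 TPM).

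The 3 Mrps18 paralogs, related proteins that sit at different places, were unequal. Mrps18c, the closest counterpart of the bacterial protein in the small subunit, had 155 and 190 TPM. Mrps18a, now assigned to the large subunit, had 146 and 136 TPM. Mrps18b, a small-subunit protein, had 54.2 and 55.4 TPM and was the lowest of the 3 in each pup.

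Members named for other reasons kept within the same range. Mrpl58, a release factor that became part of the large subunit, had 167 and 160 TPM. Mrps36 had 125 and 144 TPM, above the median of either subunit. Mrps30, named for the small subunit but located in the large, had 27.8 TPM with M21 and 60.6 TPM with M4.

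The 5 subunits that carry other symbols had a median of 109 TPM, within the range of the members. Chchd1 had 183 and 238 TPM, Aurkaip1 122 and 146 TPM, and Dap3, a GTP-binding protein of the small subunit, 105 and 112 TPM. Ptcd3 had 52.4 and 42.9 TPM, and Gadd45gip1, a protein of the large subunit, 30.3 and 32.4 TPM.

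The genes that build and serve the ribosome had lower medians than its proteins. The 23 assembly factors had a median of 19.9 TPM, with the helicase Dhx30 (96.6 and 78.4 TPM) and Malsu1 (72.1 and 86.1 TPM) highest and Mettl15 (5.83 and 5.90 TPM) and Ybey (3.79 and 2.90 TPM) lowest. The 15 translation factors had a median of 16.3 TPM, from Slirp (172 and 209 TPM) and the elongation factor Tufm (83.9 and 77.6 TPM) down to Mtrf1l (5.49 and 5.26 TPM) and Taco1 (4.13 and 2.33 TPM). The 17 mitochondrial aminoacyl-tRNA synthetases, which charge tRNAs, had a median of 13.4 TPM. Leading transcripts were longer in these lists, with medians of 1513 bases (assembly factors), 2042 (translation factors) and 3046 (synthetases), against 870 for members. The lists were not compared with members at equal length.

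Lars2, the leucyl-tRNA synthetase, stood apart from the other synthetases at 724 and 761 TPM, on 69035 and 81864 expected counts. Whether all reads assigned to Lars2 came from its messages was not tested. The second highest synthetase was Rars2 at 40.4 and 33.7 TPM, and the lowest were Wars2 (3.27 and 2.24 TPM) and Mars2 (2.09 and 1.85 TPM). The 10 genes for mitochondrial transcription and DNA maintenance had a median of 21.1 TPM, with Ssbp1 (63.8 and 66.1 TPM) and Tfam (38.8 and 37.9 TPM) highest and Polg2 (8.26 and 8.95 TPM) and Twnk (8.92 and 6.98 TPM) lowest.

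**Figure D3:**
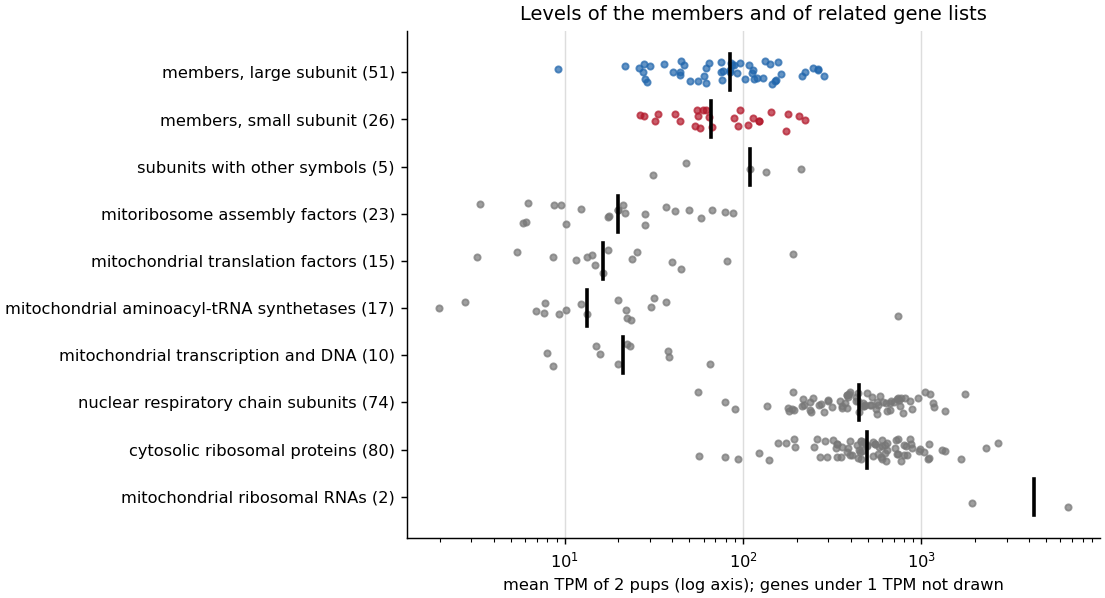
Mean TPM of 2 pups (log axis) for each gene of the members, by subunit, and of 8 related lists. Points are genes, black bars are list medians, and genes under 1 TPM are not drawn. The medians of the members lie above those of the assembly, translation factor and synthetase lists. They lie below those of the respiratory chain and cytosolic ribosome. Single genes of the lists overlap with the members.

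Nuclear genes of the respiratory chain, whose proteins assemble with the products of this ribosome, and those of the cytosolic ribosome were higher. The nuclear respiratory chain list, 74 identifiers of 73 symbols, had a median of 444 TPM, 5.28 times that of the members, with Atp5b (1788 and 1734 TPM) and Cox6a1 (1248 and 1477 TPM) highest. Atp5g2 (52.4 and 59.9 TPM) was the lowest of the 73 detected. Atp5o carries a pair of identifiers in the annotation, of which the main gene had 636 and 700 TPM and the other, which overlaps it, was listed at 0. The 80 cytosolic ribosomal protein genes had a median of 498 TPM, 5.92 times that of the members, with Rpl41 at 2015 and 2571 TPM. Rpl10l was listed at 0, and Rpl3l at 0 and 0.270 TPM. Cytosolic ribosomal protein genes have many pseudogenes, so the split of their reads is uncertain.

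The large mitochondrial ribosomal RNA mt-Rnr2 was listed at 5792 and 7485 TPM and the small one, mt-Rnr1, at 1807 and 2023 TPM. The level of mt-Rnr2 was 70.0 and 90.5 times the median member in pup 1 and pup 3. These RNAs do not carry the long tails of cytosolic messages, and how fully oligo-dT priming captured them was not tested.

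Relative to other genes, members were slightly higher in pup 3. For 10994 genes of 5 TPM or more the median log2 ratio of TPM + 1 in pup 3 over pup 1 was -0.22, and for the members it was 0.05. Measured from the median of all genes, the members' median was therefore 0.27, with quartiles of 0.16 and 0.39. Of the 78 members, 72 lay above the median of all genes, and 48 had more TPM in pup 3 while 30 had less.

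Mrps33 was the only member more than 1.5-fold higher in pup 3 relative to all genes, and no member was more than 1.5-fold lower. On counts scaled with TMM or DESeq2 size factors the only such member was Mrpl20 instead, at 0.59 on the log2 scale, and Mrps33 had 0.48. Among all genes 2.42% were that much higher and 4.38% that much lower. Exact 95% intervals of the count ratio, which cover counting error alone, lay above the median of all genes for 66 members, below it for 3 and across it for 9. Among all genes 34.6% lay above and 35.1% below. A gap beyond these intervals, which may be too narrow, was thus common throughout, and in the members it was mostly in the direction of pup 3.

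The members with the largest positive values were Mrps33 at 0.66, Mrps16 at 0.56, Mrpl20 at 0.54, Mrps18c at 0.51 and Mrpl34 at 0.50, all on the log2 scale relative to all genes, with Mrps24 close behind. Mrps16, a small-subunit protein of bacterial type, had 49.5 TPM in pup 1 and 62.9 in pup 3, and Mrpl34, a large-subunit protein of bacterial type, 120 and 146. At the other end stood Mrpl19 at -0.25, Mrpl10 at -0.22, Mrpl18 at -0.10, Mrpl27 at -0.07 and Mrpl43 at -0.04. Mrpl19, Mrpl10 and Mrpl18 were the 3 members whose count interval lay below the median of all genes. Mrpl43 had 82.0 and 68.1 TPM.

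The difference between the pups went with transcript length, in the members and in other genes. The Spearman rho between the log2 ratio and the length of the leading transcript was -0.48 over the members and -0.48 over the 10329 protein-coding genes. It is a description across genes, and no p is given. Members were short, with a median leading transcript of 870 bases against 2399 bases for protein-coding genes. In members under 700 bases (21 genes) the median relative ratio was 0.37, and in the 752 protein-coding genes of that length 0.22. From 700 to 1000 bases the values were 0.28 and 0.25, from 1000 to 1500 bases 0.23 and 0.16, and from 1500 bases 0.14 and -0.06.

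**Figure D4:**
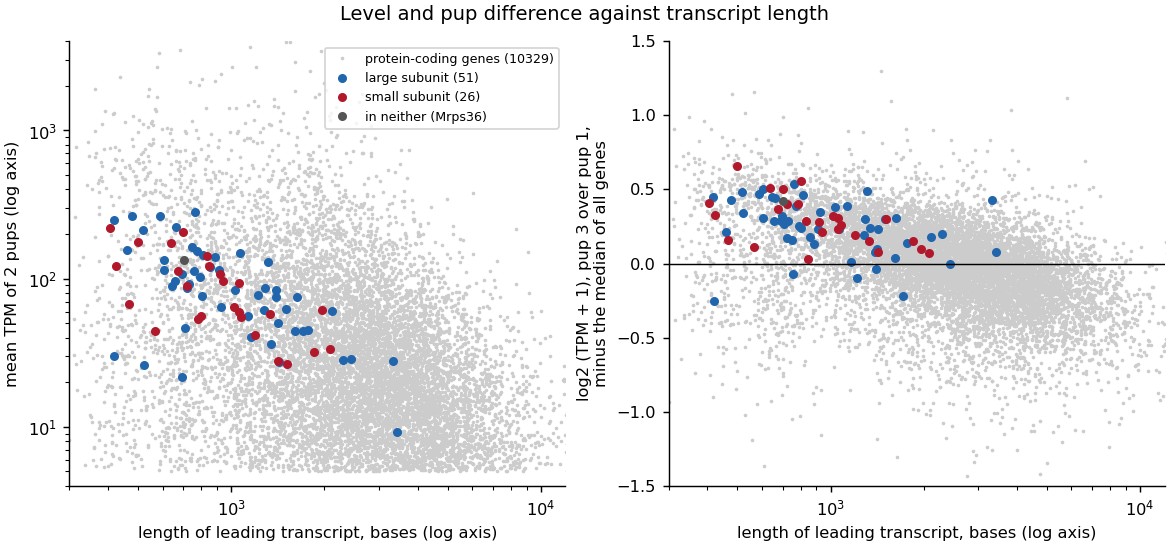
Mean TPM (left) and log2 ratio of pup 3 over pup 1 relative to all genes (right) against the length of the leading transcript, on log axes but for the ratio. Grey points are the 10329 protein-coding genes, some of which lie outside the axes, and coloured points are the members. Members sit among short genes, and their ratios follow the same downward slope as the grey points.

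Measured from the median of protein-coding genes whose leading transcript is under 1500 bases, the members' median ratio was 0.08, 51 of 78 lay above, and no member was over 1.5-fold apart. Nuclear respiratory chain genes had a median relative ratio of 0.41 and cytosolic ribosomal protein genes of 0.52, with 72 of 73 and 77 of 77 genes above the median of all genes. Neuronal genes also differed between these pups. Neurod6, of excitatory neurons, had 197 and 316 TPM, Dlx1, of inhibitory neurons, 115 and 83.5 TPM, and Gad1, which makes the transmitter GABA, 101 and 71.2 TPM. Their part in the members' difference was not tested.

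Length also went with the level. The Spearman rho between mean TPM and the length of the leading transcript was -0.60 over the members and -0.35 over protein-coding genes. For counts, which are not divided by length, it was -0.13 and 0.08. Since TPM divides by length, the measures share that quantity. Within each length class members had higher medians than protein-coding genes, at 122 and 53.3 TPM under 700 bases, 112 and 64.0 TPM from 700 to 1000, 61.9 and 42.1 TPM from 1000 to 1500, and 33.4 and 21.7 TPM from 1500 bases.

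For 15 of the 78 members the leading transcript was not annotated as protein coding, against 8.91% of protein-coding genes of 5 TPM or more. In 5 of them the leader was marked for nonsense-mediated decay, a pathway that destroys messages with an early stop. These were Mrps14, Mrpl32, Mrpl13, Mrpl3 and Mrpl35. In 6 it was a processed transcript, which has no annotated reading frame, in Mrpl51, Mrpl15, Mrps35, Mrps16, Mrpl19 and Mrpl47. In 4 it was a retained-intron transcript, in Mrpl57, Mrps24, Mrps26 and Mrps25.

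These leaders were mostly shorter than the coding model beside them. In 13 of the 15 the leader was shorter than the highest protein-coding transcript of the gene, and in 10 it ended over 1000 bases before it. In Mrpl57 the retained-intron model, of 519 bases, took 95.3% and 96.5% of the gene's TPM, and the coding model, of 2877 bases, was left with 9.12 and 8.23 TPM. All 306 coding bases lie inside the shorter model without an intron between them. After the stop codon the coding model runs on for 2474 bases and the shorter model for 126. In Mrpl57 the annotated class of the leader thus says nothing of whether the reading frame is present.

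Mrps14, Mrps24 and Mrps26 also had every coding base inside the leader, with 25, 68 and 80 extra bases that the coding model splices out. The leader took 88.9% and 91.3% of Mrps14, and 94.6% of Mrps26 in both pups. In Mrpl32 96.6% and in Mrps16 97.5% of the coding bases lay inside. In Mrpl19 it was 37.7%, and in Mrps35 none, since its leader covers a different end of the gene. Between the annotation releases 7 of 77 members differed by over 1.5-fold in level, namely Mrpl57, Mrpl11 and Mrpl35, which were lower with M4, and Mrpl48, Mrps16, Mrps30 and Mrpl23, which were higher. Among protein-coding genes of 5 TPM or more 5.49% differed by that much. Mrpl57 was listed at 213 TPM with M21 and 47.6 TPM with M4, and Mrpl35 at 46.8 and 18.8 TPM.

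**Figure D5:**
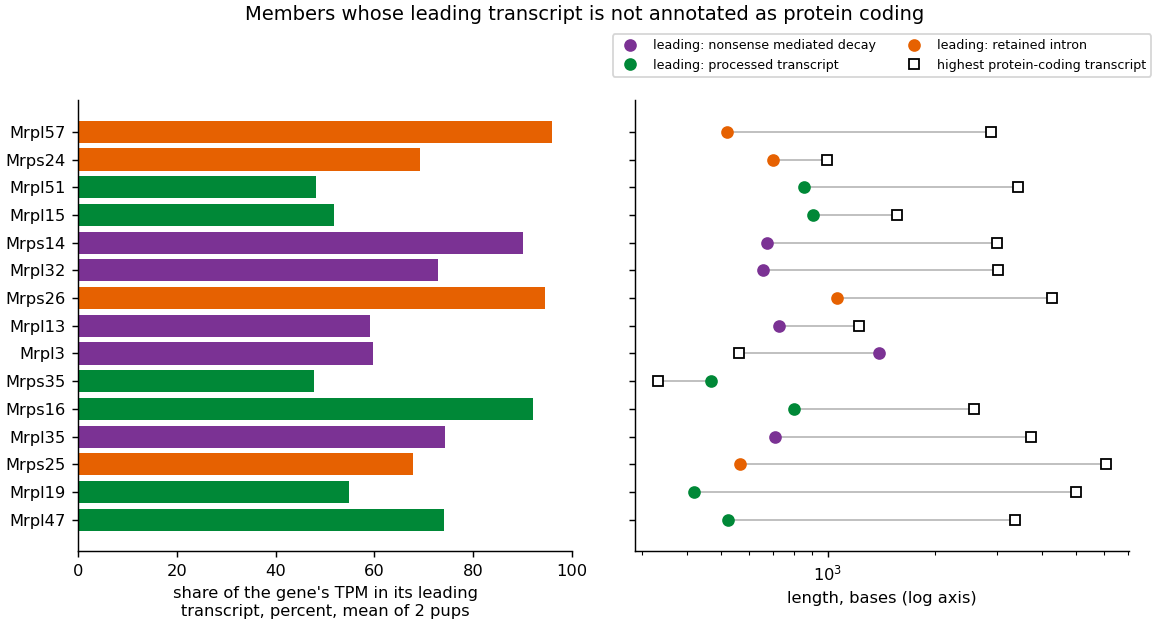
For the 15 members led by a transcript not annotated as protein coding, share of the gene's TPM in that transcript (left, percent, mean of 2 pups) and its length beside that of the highest protein-coding transcript (right, log axis). Shares run from 47.8% for Mrps35 to 95.9% for Mrpl57, and 13 of the 15 leaders are the shorter of the pair.

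In 7 members the leading transcript held under 50% of the gene, against 22.8% of protein-coding genes of 5 TPM or more. These were Mrpl30 (43.1% and 47.9%), Mrps5 (30.4% and 26.9%), Mrpl51 (47.2% and 49.2%), Mrpl55 (36.9% and 40.5%), Mrpl48 (48.5% and 46.7%), Mrps35 (48.5% and 47.0%) and Mrps10 (45.4% and 49.1%). In 36 members it held 90% or more, as it did in 30.3% of those protein-coding genes. The leader differed between the pups in Mrps33 and Mrps5 alone. In Mrps33 a transcript of 500 bases and another of 1107 bases took 49.7% and 50.1% in pup 1 but 53.9% and 37.1% in pup 3. Relative to all genes, Mrps33 had the largest gap in TPM between the pups, 0.66, and a smaller gap in scaled counts, 0.48. Its shorter model also held a larger share in pup 3.

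The members were spread over 17 chromosomes, with 11 on chromosome 11 and none on 18, X or Y. Of the 78, 18 (23.1%) started within 1000 bases of the start of a coding gene on the opposite strand facing away, with both at 5 TPM or more and at most 500 bases of overlap. Among protein-coding genes of that level the share was 11.4%. The pair Mrps11 and Mrpl46 joins a small and a large-subunit gene, at 58.2 and 61.6 TPM and at 52.8 and 59.5 TPM. Mrpl36 faces Ndufs6, a complex I subunit (350 and 443 TPM), and Mrps12 faces Sars2, the mitochondrial seryl-tRNA synthetase (13.3 and 11.4 TPM).

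Most partners had other roles and other levels. Mrpl49 (46.0 and 43.3 TPM) faces Fau (504 and 616 TPM), which encodes a cytosolic ribosomal protein, and Mrpl32 (93.8 and 98.3 TPM) faces the proteasome gene Psma2 (149 and 176 TPM). Mrps18c faces the helicase gene Helq (7.44 and 5.27 TPM), over a distance of 29 bases. A shared start region thus came with levels that differed widely in some pairs and little in others.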

How the data were processed

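Polyadenylated RNA was measured in 2 forebrain libraries, for which the authors deposited gene and transcript tables on mm10 with annotation releases M21 and M4, per the file headers. The aligner and the quantifier were not given in the sources used here, and the columns are named as RSEM names them. The deposited expected counts are estimated counts per gene, which share out multi-mapped reads. The authors also deposited TPM, as point estimates and posterior means, FPKM, and, for transcripts, the percent of the gene's TPM. The bounds of the TPM intervals were deposited as well, a signal not used for any statement.

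The M21 tables were used, and M4 as an alternative. Symbols, types and coordinates came from the GENCODE M21 annotation. The log2 ratio of the pups used TPM with a pseudocount of 1 and genes with a mean of 5 TPM or more, less the median of all such genes. Expected counts were rounded for exact binomial intervals, and for scaling with edgeR 4.0.16 and DESeq2 1.42.0 in R 4.3.3, which served as alternatives. The ratio step was tested on counts simulated with counting error alone and without a trend with length. That run therefore has no bearing on the length trend between these pups. Python 3.11.15, pandas 2.3.3 and scipy 1.17.1 were used otherwise. Errors are SDs over 2 pups, which measure the spread between these samples. Promoters came from RefSeq (GRCm38.p6), matched by symbol for 69 of 78 members.

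Members and lists were chosen with earlier results of these data known. Genes were named by rule: the 10 highest and 10 lowest members, the 5 largest differences between pups in each direction, 5 structural lists, Mrps30, Mrps36, Mrpl58, members led by a transcript that is not coding or holds under 50%, and the 2 highest and 2 lowest genes of other lists, of which not all are reported here. Genes named for release M4, as marker or as neighbour were chosen after their values were seen, as was the sum of Mrpl23 and its pseudogene.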

Additional observations from a re-analysis of the deposited data

How the results depend on the processing

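Of 56 alternatives run over 7 results, 43 left the value within its spread (counts within 1.5 times). For levels the spread was the SD between the pups. For the median ratio it was an interval of 0.21 to 0.31 over the 78 members, which are not replicates. A direction could turn only in the subunit difference, the bacterial-type difference and the median ratio, and it turned in none of them. All 78 members were detected at a minimum of 0.5 or 5 TPM, with posterior means and in each pup alone, and 77 with release M4, where Mrpl33 had no entry under its identifier. The median level was 84.0 TPM, and it became 83.4 TPM with M4, 82.6 TPM with posterior means, 85.0 TPM with Mrpl23 and its pseudogene counted together, and 82.7 to 82.8 TPM with either pup left out. The large minus small subunit difference of 0.35 became 0.10 with M4 and 0.10 on CPM, and the bacterial-type minus mitochondria-specific difference of 0.49 became 0.05 on CPM. The SD of log2 levels of 0.99 became 0.61 on CPM. The members' median ratio of 0.27 relative to all genes became 0.18 with no filter and 0.08 relative to protein-coding genes under 1500 bases. With either of these, 0 members were over 1.5-fold apart in place of 1. With TMM or DESeq2 scaling of counts the member over 1.5-fold apart was Mrpl20 in place of Mrps33, the median was 0.25, and 73 of 78 members lay above the median of all genes. The all-gene median itself moved from -0.22 to 0.05 with TMM and 0.06 with DESeq2 size factors. No paired analysis was possible because there is a single group. Beyond the settings themselves, the cause of these shifts was not tested. With 2 pups, a difference between them has no replicate check. The fewest counts of any member were the 428 and 446 of Mrpl23, whose division from its pseudogene is uncertain, and the next fewest the 685 and 686 of Mrpl1.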
